A study of Mus musculus with 8 samples.

Results

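The machinery that moves proteins into the endoplasmic reticulum (ER), folds them there and removes those that fail was described by 53 genes, out of 55414 gene identifiers counted in sorted Paneth cells of the mouse small intestine. The genes were chosen by name for their place in this pathway. No cutoff on a measured value was used, but earlier results of these data were known when they were chosen. They fall into 9 roles, which are luminal chaperones and cochaperones, lectin chaperones, disulfide formation, degradation, targeting, translocon, TRAP (the translocon-associated protein complex), signal peptidase and oligosaccharyltransferase. All 53 genes passed the expression filter of the test between diets, which kept 10911 genes.

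The counts came from C57BL/6J mice of which 4 ate standard chow (control) and 4 ate a zinc depleted chow (zinc deficient), both for 7 weeks. Paneth cells of the small intestine were collected by FACS, and each mouse gave 1 library made with a stranded mRNA kit. The ages of the mice are not in the labels used here. The question of the design is what a lack of dietary zinc does to the Paneth cell transcriptome.

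Libraries held 8557690 to 11826416 counts in control mice and 9924102 to 12648005 counts in zinc deficient mice. Levels of a gene across mice are given in normalised CPM, which are counts per 1000000 of a library size scaled by edgeR's TMM factors. The 7 Paneth cell markers (among them Lyz1 and Defa24) summed to 294532 normalised CPM in control mouse 1, to at most 608001 in the other control mice, and to between 477179 and 846910 in zinc deficient mice. Plasma cells, which are rich in the same ER genes, left little trace, since their 7 markers summed to between 20.7 and 29.2 normalised CPM and Mzb1 and Tnfrsf17 had no count in any mouse. Immune markers summed to at most 2.95 and stromal and vessel markers to at most 0.108 normalised CPM. Other lists varied more between mice. The 4 tuft cell markers summed to between 16.4 and 282 and the 7 enterocyte markers to between 17.6 and 153 normalised CPM. The 6 enteroendocrine markers summed to between 15.7 and 40.8. The 7 goblet cell markers summed to between 4561 (control mouse 1) and 11183 normalised CPM in control mice and to between 7588 and 14217 (zinc deficient mouse 4) in zinc deficient mice. In bulk samples, fewer cells of a type and less RNA per cell cannot be told apart.

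Paneth cells secrete defensins, lysozyme and lectins in bulk, and most of these proteins carry a signal peptide and disulfide bonds. The signal recognition particle halts a ribosome that makes such a protein and docks it at the ER membrane, where the Sec61 channel lets the chain through, signal peptidase cuts off the signal and oligosaccharyltransferase adds glycans. Inside the ER, BiP (Hspa5) and its partners hold the chain, oxidoreductases of the PDI family form its disulfide bonds, and chains that do not fold are drawn out to the proteasome, a process called ER-associated degradation. When unfolded protein builds up, the sensors Ire1, Perk and Atf6 raise the transcription of many of these genes through short promoter elements, which is the unfolded protein response.

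The best known of these elements is the ER stress element (ERSE), with the letters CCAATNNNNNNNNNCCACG, and a shorter form is ERSE-II, with the letters ATTGGNCCACG. Both were searched on both strands of the RefSeq promoter windows of build GRCm38.p6, which run from 250 bases before to 50 bases after a gene's start. A window was given for 44 of the 53 genes and not for Ssr2, Spcs3, Derl1, Manf, Ostc, Srp68, Sec61a1, Sec11c or Hyou1. A gene was counted if any of its windows held the motif. An ERSE was found for 10 of the 44 genes (22.7%), against 37 of all 27025 genes with a window (0.137%). An ERSE-II was found for 2 of the 44 (4.55%), against 12 of all genes with a window (0.0444%), and none of the 44 had both. Both motifs were chosen as elements known to act in this pathway, so the contrast with all genes is a description and not a test. The ERSE genes were Hspa5, Hsp90b1 (with 2 sites), Creld2 and Dnajc3 among the luminal chaperones, Calr and Canx, the 2 lectin chaperones, Pdia6 and Ero1b in disulfide formation, and Syvn1 and Derl3 in degradation. The ERSE-II genes were Herpud1 and Dnajb11. None of the windows of targeting, translocon, TRAP, signal peptidase or oligosaccharyltransferase genes held either motif.

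The sites below belong to the genes of this kind that differed most between zinc deficient mice 4 and 2 (Hspa5, Creld2, Syvn1 and Herpud1), to 2 that differed less (Calr and Pdia6) and to Derl3, the only gene with an ERSE that was lower in zinc deficient mouse 4 than in zinc deficient mouse 2. Each is read 5′ to 3′ on the strand of its gene, with 20 bases on either side, and capitals mark the motif, which reads as its reverse complement in Creld2, Calr and Derl3.
Hspa5: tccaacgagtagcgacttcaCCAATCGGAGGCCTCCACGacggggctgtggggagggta
Creld2: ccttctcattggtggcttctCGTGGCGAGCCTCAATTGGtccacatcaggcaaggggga
Syvn1: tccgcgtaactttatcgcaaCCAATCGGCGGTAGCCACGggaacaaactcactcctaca
Calr: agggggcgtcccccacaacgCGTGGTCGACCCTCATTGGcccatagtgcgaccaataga
Pdia6: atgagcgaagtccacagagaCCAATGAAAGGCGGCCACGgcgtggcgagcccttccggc
Derl3: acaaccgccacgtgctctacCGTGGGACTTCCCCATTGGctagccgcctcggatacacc
Herpud1: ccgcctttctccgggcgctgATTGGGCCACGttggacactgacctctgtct
The promoter windows of these genes are chr2:34771840-34772139 on the plus strand for Hspa5, chr15:88819396-88819695 on the plus strand for Creld2, chr19:6046326-6046625 on the plus strand for Syvn1, chr8:84846882-84847181 on the minus strand for Calr, chr12:17266339-17266638 on the plus strand for Pdia6, chr10:75893148-75893447 on the plus strand for Derl3 and chr8:94386179-94386478 on the plus strand for Herpud1. The first base of the element stood at -65 from the start in Hspa5, at -44 in Syvn1, at -126 in Creld2 and at -162 in Calr. A match of letters is a description of the sequence and was not tied to binding of any factor here.

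**Figure D1:**
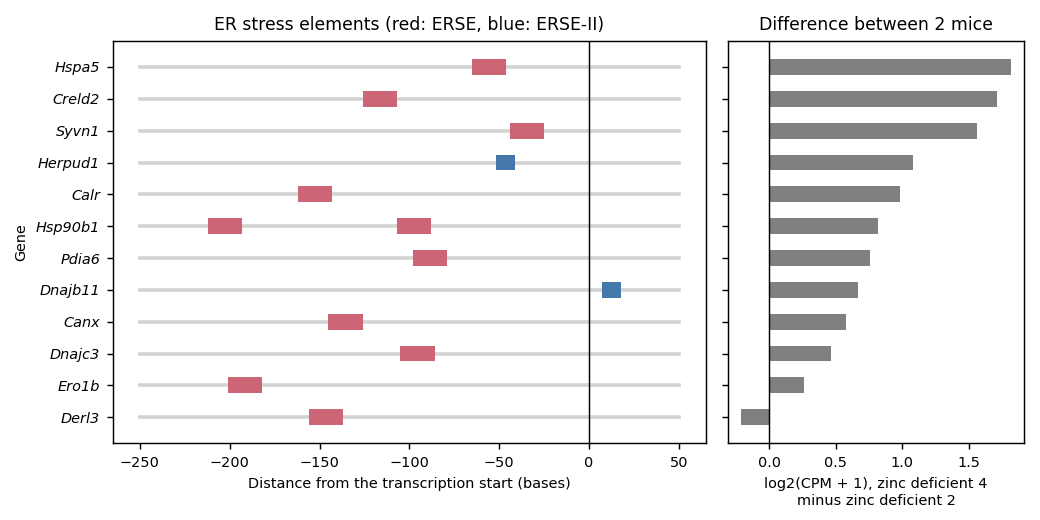
Left, position of the ER stress elements in the promoter windows of 12 genes, in bases from the transcription start (red, ERSE; blue, ERSE-II). Right, difference in log2(normalised CPM + 1) between zinc deficient mice 4 and 2, which were picked after seeing the data. The genes are ordered by this difference, which runs from 1.82 in Hspa5 to -0.21 in Derl3.

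The machinery was expressed at a high level in all 8 mice. Together the 53 genes took 1.12% ± 0.129 (SD, n = 4) of the counts in control mice and 1.03% ± 0.271 (SD, n = 4) in zinc deficient mice. The lowest share was 0.728% in zinc deficient mouse 2 (95% Wilson interval 0.723% to 0.734%, counting error only) and the highest was 1.32% in zinc deficient mouse 4 (1.31% to 1.32%), so that both ends lay within the zinc deficient group. The control mice had 1.29%, 1.10%, 1.12% and 0.969%, and the other zinc deficient mice had 0.884% and 1.19%. For 51 of the 53 genes every mouse had more than 100 counts, and the lowest count of any gene in any mouse was 28.

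Per unit of length, P4hb, the classical protein disulfide isomerase, stood far above the rest with 509 ± 118 transcripts per 1000000 (TPM; SD, n = 8) and 27.3% ± 1.67 of the summed TPM of the 53 genes. Next came Calr with 108 ± 31.3, Hspa5 with 92.9 ± 36.2, Pdia3 with 75.9 ± 20.4 and Ssr3 with 73.7 ± 14.9 TPM, whose ranges over mice overlap. The order depended on the length used, and with the canonical transcript length Sec11c had 146 TPM, beside 155 for Calr and 90.0 for Hspa5, and 20.3 TPM with the summed exon length. The lowest were Sec61g, the gamma subunit of the channel, with 1.10 ± 0.219 TPM, Derl3 with 2.12 ± 0.494 TPM and Derl2 with 3.10 ± 0.641 TPM. With the canonical transcript length Ero1a (4.66 TPM) was below Derl2 (5.92 TPM). TPM used the summed exon length of GENCODE M39, and Sec61g has near copies elsewhere in the genome, so that 84.2% of its 50-base windows were unique.

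No ER machinery gene was called between diets (0 of 53 at an adjusted p under 0.05, edgeR), where 0.403% of all genes tested were called. DESeq2 called 0 of 53 as well, with 1.09% of all genes called. At an unadjusted p under 0.05 edgeR gave 5 of 53 genes, which are Ero1a, Sec11c, Sec11a, Ssr4 and Spcs1, against 10.5% of all genes, and DESeq2 gave 8 of 53 against 6.56%. All 5 had the higher mean in zinc deficient mice, a direction with an unadjusted p under 0.05 for 4.43% of all genes. For 0 of 53 genes did the 4 values of one diet lie wholly above those of the other, against 6.09% of all genes. Without the expression filter, 16 of 53 had an unadjusted p under 0.05, against 10.2% of all genes, and Srp9 alone was called (adjusted p = 0.0492, edgeR), against 1.33% of all genes.

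The estimates nevertheless leaned to one side. The fitted log2 fold change (zinc deficient over control) was above 0 for 47 of 53 genes, with a median of 0.22, beside a median of -0.0052 over all genes tested, and the extremes were -0.16 for Os9 and 0.77 for Creld2. The sign of these values depended on the scaling. With library size only, the median of all genes moved to -0.37 and that of the 53 genes to -0.087, with 20 of 53 above 0, while relative to the median of all genes the machinery was higher by 0.28 (50 of 53 genes above that median), beside 0.22 (47 of 53) with TMM. The size of the lean rested on a few mice. Without zinc deficient mouse 4 the median of the 53 genes was 0.041 with 32 above 0, without control mouse 1 it was 0.11 with 43 above 0, and without control mouse 3 it was 0.35 with 50 above 0.

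**Figure D2:**
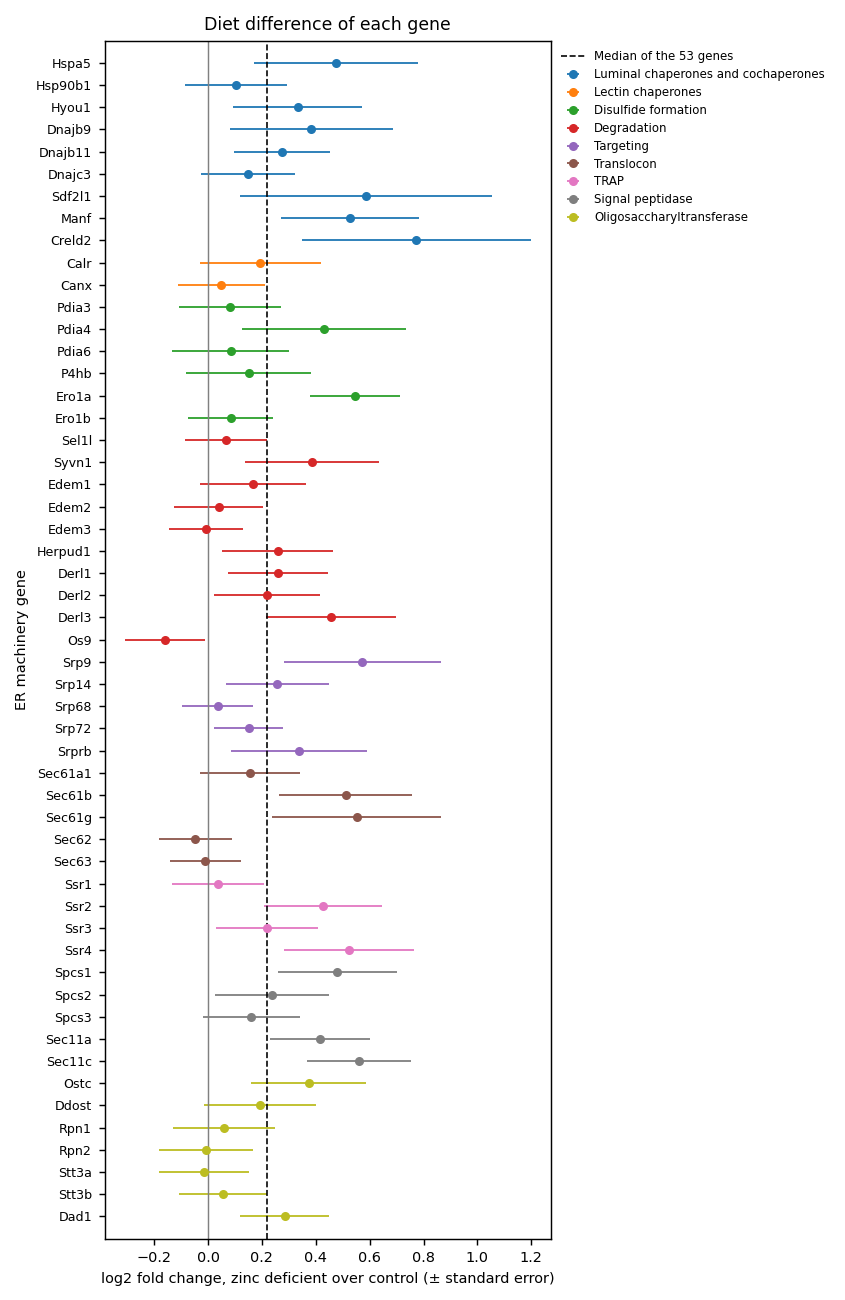
Log2 fold change between diets of each of the 53 genes with TMM scaling (points; bars, standard error; n = 4 mice per diet), coloured by role. The points run from -0.16 for Os9 to 0.77 for Creld2, and the dashed line marks the median of 0.22, which is -0.087 with library size only.

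The luminal chaperones had the most variable levels. BiP itself, Hspa5, the Hsp70 of the ER lumen, had 423, 477, 686 and 514 normalised CPM in control mice 1 to 4 and 591, 369, 658 and 1302 in zinc deficient mice 1 to 4. Zinc deficient mice 2 and 4 were the lowest and the highest of all 8, and the groups overlapped. The log2 fold change was 0.48 ± 0.31 (SE; edgeR, adjusted p = 0.641), a difference smaller than the spread within the zinc deficient group, in which the highest mouse had 3.53 times the level of the lowest. Without zinc deficient mouse 4 that ratio was 1.78 and the log2 fold change was 0.041. The spread of Hspa5 within diets (SD 0.57 on the log2 scale) was wider than that of 97.0% of all genes tested.

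Most partners of BiP also had their highest value in zinc deficient mouse 4. Creld2, a small cochaperone with disulfide isomerase activity, had 20.4, 33.0, 47.2 and 31.1 normalised CPM in control mice and 38.4, 30.8, 50.3 and 103 in zinc deficient mice. Sdf2l1, which works with the Hsp40 protein of Dnajb11, had 39.1, 52.3, 114 and 76.2 in control mice and 65.9, 72.1, 89.9 and 193 in zinc deficient mice. In both genes control mouse 1 was the lowest and zinc deficient mouse 4 the highest of the 8, with control mouse 3 above 2 or more of the zinc deficient mice. Hyou1, the nucleotide exchange factor of BiP, had 140, 139, 195 and 138 normalised CPM in control mice and 156, 113, 204 and 299 in zinc deficient mice. Manf, a secreted cochaperone, had 82.7, 108, 177 and 143 in control mice and 152, 136, 164 and 285 in zinc deficient mice, and control mice 3 and 4 lay above zinc deficient mouse 2. Of the J-domain cochaperones, Dnajb9 ranged from 60.3 to 210, Dnajb11 from 62.2 to 121 and Dnajc3 from 183 to 312 normalised CPM over the 8 mice. Hsp90b1, the Hsp90 of the ER, ranged from 209 to 368. The fitted log2 fold change was above 0 for 9 of 9 genes of this role, with a median of 0.38. An unadjusted p under 0.05 was found for 0 of 9 (edgeR), against 10.5% of all genes. The median of this role was 0.15 with library size only and 0.089 without zinc deficient mouse 4.

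**Figure D3:**
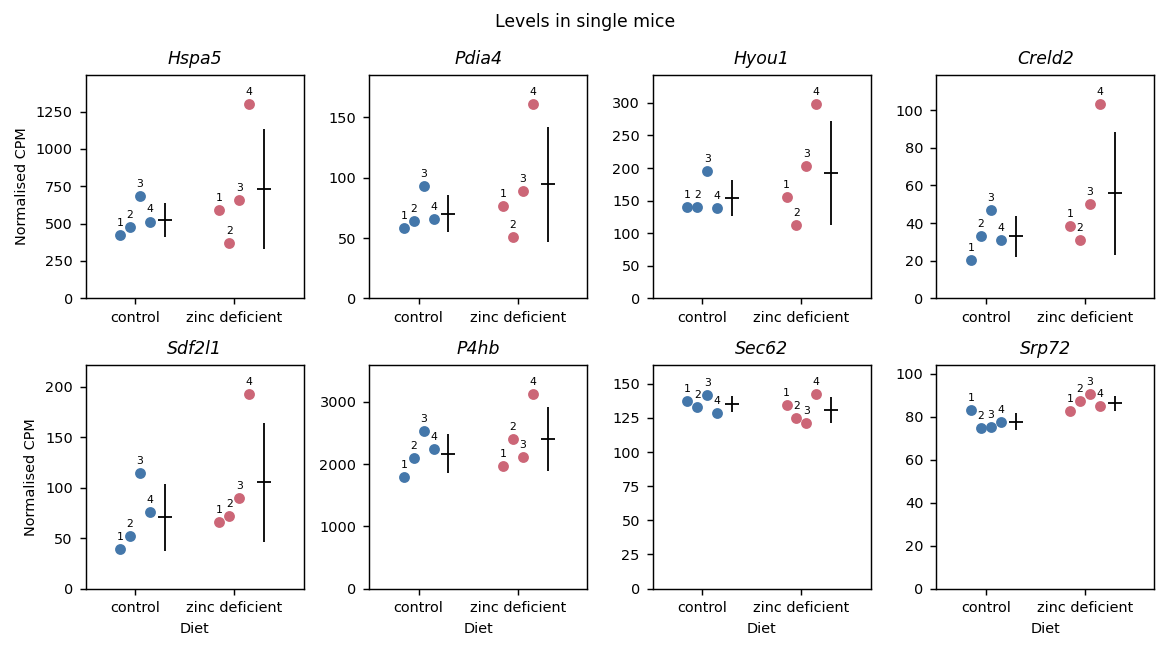
Normalised CPM of 8 genes in each mouse (numbered points; black bars, mean and SD, n = 4 per diet). Zinc deficient mouse 4 is the highest point for Hspa5 (1302), Pdia4 (161), Hyou1 (299), Creld2 (103), Sdf2l1 (193), P4hb (3130) and Sec62 (143), whereas Srp72 lies between 74.8 and 90.7 in all 8 mice.

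The lectin chaperones, which bind newly glycosylated chains, differed less. Calr had 365, 434, 598 and 451 normalised CPM in control mice and 408, 391, 542 and 772 in zinc deficient mice. Its log2 fold change was 0.19 ± 0.23 (SE; edgeR, adjusted p = 0.825) with TMM and -0.11 with library size only. Canx, its membrane-bound relative, had 134 to 202 normalised CPM in zinc deficient mice and 143 to 164 in control mice, so that the control range lay inside the other. The median log2 fold change of these 2 genes was 0.12, and -0.20 with library size only.

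Disulfide formation held the most abundant gene and the gene with the smallest p-value. P4hb had 1788, 2099, 2540 and 2245 normalised CPM in control mice and 1978, 2398, 2117 and 3130 in zinc deficient mice, and 3 of the 4 zinc deficient mice lay inside the control range. Ero1a, which passes oxidising equivalents to P4hb, had 26.2, 20.8, 22.2 and 22.8 normalised CPM in control mice and 41.1, 25.0, 29.6 and 38.6 in zinc deficient mice. The zinc deficient mice 1, 3 and 4 were above every control mouse and mouse 2 was below control mouse 1. The log2 fold change was 0.54 ± 0.17 (SE; edgeR, adjusted p = 0.207), and 0.17 with library size only. Its windows of 50 bases were unique in only 55.1% of cases, the lowest share of the 53 genes. Ero1b, the form known from secretory cells such as those of the pancreas, had 35.5 to 57.6 normalised CPM over the 8 mice. Pdia4 had 58.4, 63.7, 92.9 and 65.9 normalised CPM in control mice and 76.3, 50.9, 89.1 and 161 in zinc deficient mice, with a log2 fold change of 0.43 ± 0.30 (SE; edgeR, adjusted p = 0.684) that was 0.046 without zinc deficient mouse 4. As in Hspa5, the lowest and the highest of the 8 mice were zinc deficient mice 2 and 4. Pdia3, which acts with the lectin chaperones, ranged from 345 to 557 and Pdia6 from 212 to 451 normalised CPM. The median log2 fold change of the 6 genes was 0.12, and -0.20 with library size only.

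In degradation, Syvn1, the membrane ubiquitin ligase, had 49.3, 47.2, 43.5 and 44.1 normalised CPM in control mice and 52.0, 32.5, 58.1 and 97.8 in zinc deficient mice. The control mice lay close together, while the zinc deficient mice spanned 3.01-fold and lay on both sides of them, and without zinc deficient mouse 4 the span was 1.79-fold. Herpud1, a helper of the ligase, had 249, 298, 282 and 267 normalised CPM in control mice and 273, 235, 305 and 497 in zinc deficient mice, with a log2 fold change of 0.26 ± 0.20 (SE; edgeR, adjusted p = 0.724) that was -0.087 with library size only. Sel1l, the partner subunit of the ligase, varied only from 145 to 201 normalised CPM. The mannosidase genes Edem1, Edem2 and Edem3 ranged from 165 to 325, from 154 to 233 and from 80.6 to 106 normalised CPM. Derlins draw clients through the membrane. Derl1 ranged from 46.7 to 103, Derl2 from 22.4 to 51.8 and Derl3 from 3.51 to 7.20 normalised CPM, the last with its highest value in zinc deficient mouse 2. Os9, a lectin that hands glycoproteins to the ligase, had 182 to 211 normalised CPM in control mice and 152 to 200 in zinc deficient mice. The fitted log2 fold change was above 0 for 8 of the 10 genes, with a median of 0.19 that was -0.11 with library size only. An unadjusted p under 0.05 was found for 0 of 10 (edgeR), against 10.5% of all genes.

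The targeting genes held Srp72, which had the smallest spread within diets of the 53 genes, and others that varied more. Srp72 had 83.2, 74.8, 75.4 and 77.7 normalised CPM in control mice and 82.5, 87.3, 90.7 and 84.9 in zinc deficient mice. It binds the RNA of the signal recognition particle together with Srp68, which ranged from 77.1 to 96.2. The spread within diets was 0.063 on the log2 scale for Srp72 and 0.10 for Srp68, but 0.51 for Srp9, 0.46 for Srprb and 0.35 for Srp14, beside a median of 0.33 for the 53 genes and 0.27 for all genes tested. With DESeq2's size factors 1 of the 53 genes, Srp72, had groups that did not overlap, against 6.12% of all genes. Srp14, which pauses the ribosome together with Srp9, had 31.5, 42.9, 61.4 and 58.4 normalised CPM in control mice and 58.9, 70.7, 46.8 and 55.1 in zinc deficient mice, with a log2 fold change of 0.26 ± 0.19 (SE; edgeR, adjusted p = 0.696) that was -0.055 with library size only. Srp9 had 28.4, 39.7, 67.1 and 60.1 in control mice and 51.8, 77.9, 54.7 and 105 in zinc deficient mice, and 75.4% of its 50-base windows were unique. Control mouse 1 was the lowest of the 8 for both. Srprb, the membrane anchor of the particle's receptor, ranged from 37.9 in zinc deficient mouse 2 to 97.7 in zinc deficient mouse 4. Over the 5 targeting genes the median log2 fold change was 0.26, and -0.055 with library size only.

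Among the translocon genes, too, some were steady and others varied. Sec61a1, the pore of the channel, had 259, 268, 344 and 282 normalised CPM in control mice and 282, 244, 328 and 430 in zinc deficient mice, with a log2 fold change of 0.16 ± 0.19 (SE; edgeR, adjusted p = 0.834) that was -0.17 with library size only. Sec62 and Sec63, which help chains that enter after their synthesis, ranged from 121 to 143 and from 81.3 to 98.6 normalised CPM. The small subunit genes spread further. Sec61b ranged from 54.0 in control mouse 1 to 166 in zinc deficient mouse 4, with 155 in zinc deficient mouse 2, and Sec61g ranged from 1.89 to 6.08. Over the 5 translocon genes, 3 had a log2 fold change above 0, with a median of 0.16 that was -0.17 with library size only.

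The TRAP complex and signal peptidase held 4 of the 5 genes with an unadjusted p under 0.05. Ssr4, a TRAP subunit, had 125, 210, 266 and 262 normalised CPM in control mice and 228, 370, 235 and 406 in zinc deficient mice, with a log2 fold change of 0.52 ± 0.24 (SE; edgeR, adjusted p = 0.464). Zinc deficient mice 2 and 4 were above every control mouse and mice 1 and 3 were inside the control range. The other TRAP genes Ssr1, Ssr2 and Ssr3 ranged from 108 to 170, from 76.8 to 207 and from 280 to 514 normalised CPM. Over the 4 TRAP genes the median log2 fold change was 0.32, and 0.017 with library size only. Sec11c, a catalytic subunit of signal peptidase, had 111, 138, 176 and 164 normalised CPM in control mice and 174, 255, 166 and 275 in zinc deficient mice (log2 fold change 0.56 ± 0.19, SE; edgeR, adjusted p = 0.274). Sec11a, the alternative catalytic subunit, had 25.5, 34.6, 48.0 and 40.1 in control mice and 42.1, 48.4, 42.6 and 63.5 in zinc deficient mice (log2 fold change 0.41 ± 0.19, SE; edgeR, adjusted p = 0.441). Both genes had 2 zinc deficient mice, again mice 2 and 4, above all control mice. The accessory subunit gene Spcs1 had 42.9, 59.8, 83.0 and 87.5 normalised CPM in control mice and 75.0, 118, 73.1 and 114 in zinc deficient mice (log2 fold change 0.48 ± 0.22, SE; edgeR, adjusted p = 0.465). Spcs2 ranged from 110.0 to 274 and Spcs3 from 157 to 288. All 5 signal peptidase genes had a fitted log2 fold change above 0, with a median of 0.41 that was 0.10 with library size only. The adjusted p of these 4 genes ranged upward from 0.274, so that none was called. With library size only their log2 fold changes were 0.21 for Ssr4, 0.22 for Sec11c, 0.10 for Sec11a and 0.16 for Spcs1, none with an unadjusted p under 0.05 (edgeR). Of these genes only Sec11c had an unadjusted p under 0.05 without control mouse 1, and likewise without zinc deficient mouse 4 (edgeR).

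Oligosaccharyltransferase had the lowest median log2 fold change of the 9 roles with both scalings. Over its 7 genes the median was 0.059 (5 above 0) with TMM and -0.25 with library size only. Rpn1, a large subunit that binds ribosomes, had 203, 223, 297 and 252 normalised CPM in control mice and 194, 213, 267 and 341 in zinc deficient mice, with a log2 fold change of 0.059 ± 0.19 (SE; edgeR, adjusted p = 0.949). Rpn2 ranged from 231 to 361, Ddost from 136 to 306, Ostc from 55.2 to 161 and Dad1 from 59.7 to 115. The catalytic subunit genes Stt3a and Stt3b ranged from 138 to 203 and from 76.1 to 128.

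The same mice were often at the extremes. With TMM scaling zinc deficient mouse 4 had the highest value of the 8 mice for 43 of 53 genes, which held for 18.7% of all genes tested, and control mouse 1 had the lowest value for 30 of 53, which held for 18.8% of all genes. Among the control mice alone, control mouse 3 was the highest for 42 of 53 genes (26.3% of all genes). These counts depended on the scaling. With library size only, zinc deficient mouse 4 was the highest for 27 of 53 genes (4.65% of all genes) and zinc deficient mouse 2 was the lowest for 43 (48.7% of all genes). Control mouse 1 was then the highest for 23 (73.1% of all genes) and the lowest for 4 (1.78% of all genes). Among the control mice alone, control mouse 3 was then the highest for 16 of 53 (5.10% of all genes). TMM factors ranged from 0.928 to 1.57 in control mice and from 0.719 to 1.10 in zinc deficient mice, with the extremes in control mouse 1 and zinc deficient mouse 2. In the same mice, the Paneth cell marker sum was lowest in control mouse 1 (294532 normalised CPM) and highest in zinc deficient mouse 2 (846910). The goblet cell marker sum was highest in zinc deficient mouse 4 (14217). Muc2 had 2433 normalised CPM in this mouse, beside 320 to 919 in the other 7 mice. Clca1 (174), Spink4 (9171) and Agr2 (1637) were also highest there, whereas Fcgbp (111) and Zg16 (0.374) were lowest there and Tff3 (692) was neither. The 4 stem cell markers summed to 1283 to 1877 normalised CPM in control mice and to 546 (zinc deficient mouse 4) to 1107 in zinc deficient mice. The part of these cell type markers in the levels of the ER genes was not tested.

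**Figure D4:**
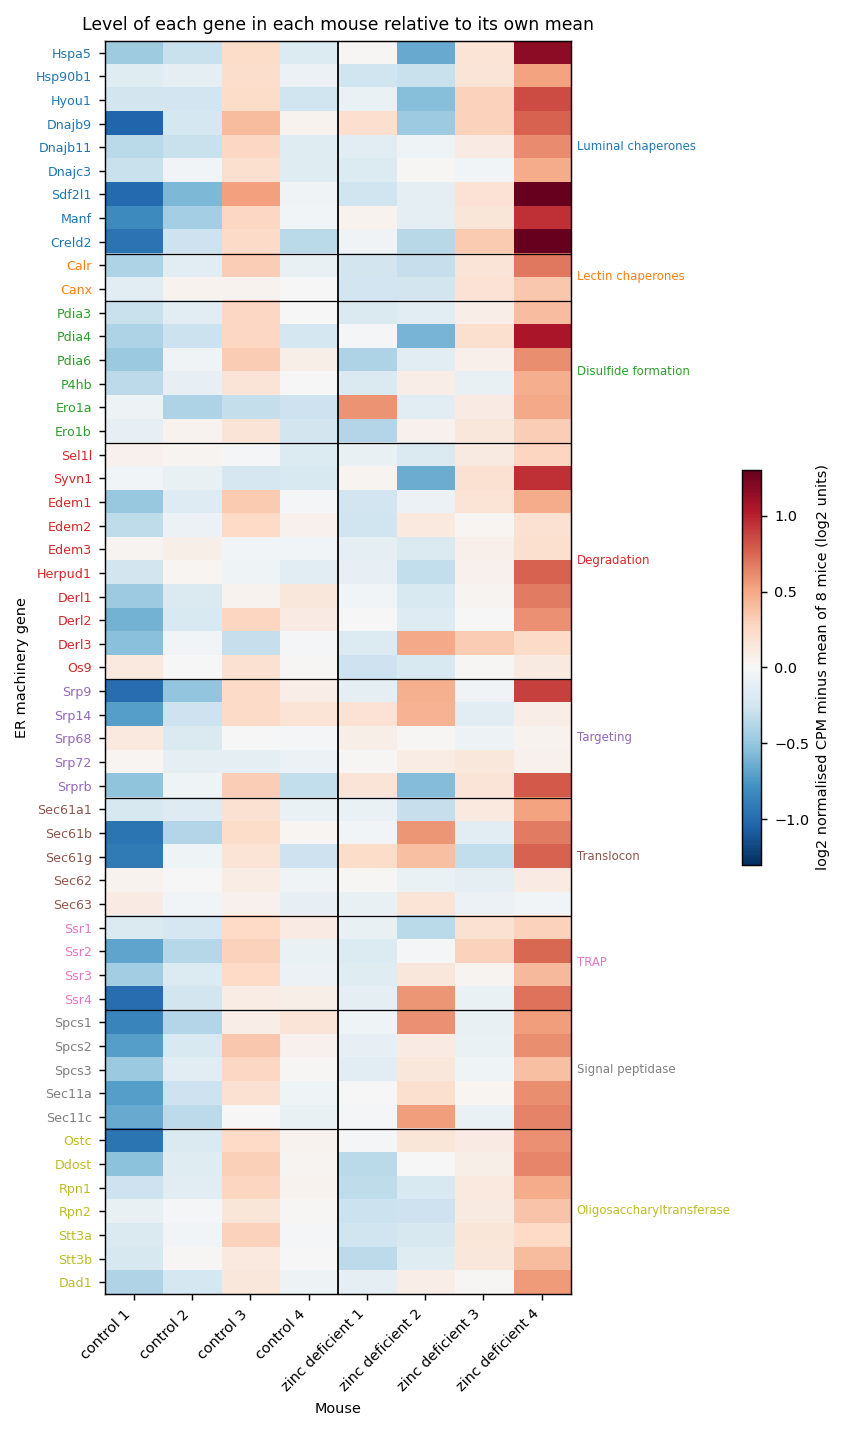
Level of each of the 53 genes in each mouse as log2 normalised CPM minus the mean of the 8 mice (colour), grouped by role. With this TMM scaling zinc deficient mouse 4 is the highest column for 43 genes and control mouse 1 the lowest for 30 (27 and 4 with library size only), while the rows of Srp68, Srp72, Sec62 and Sec63 stay near 0.

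With TMM scaling zinc deficient mouse 2 had the lowest value of the 8 mice for 11 of 53 genes, or 20.8%, against 15.8% of all genes (Hspa5, Hsp90b1, Hyou1, Pdia4, Sel1l, Syvn1, Edem3, Herpud1, Srprb, Sec61a1 and Ssr1). It had the highest value for 4, or 7.55%, against 14.9% of all genes (Derl3, Srp14, Spcs1 and Sec63). With library size only it was the highest for 0 of 53. The difference in log2(normalised CPM + 1) between zinc deficient mice 4 and 2 had a median of 0.55 over the 53 genes, of 0.78 over the 10 genes with an ERSE and of 0.46 over the 34 genes whose window held none and of 0.76 over the 9 genes without a window, beside -0.0048 over all genes tested. It was 1.82 in Hspa5, and the ratio of these mice for Hspa5 was 3.53 with TMM and 4.15 with library size only. These mice, the highest and lowest of the 8 for Hspa5, were picked after seeing the data. The comparison is between single mice, and a link between the ERSE and this difference was not tested. The genes with and without an ERSE had similar medians between diets (log2 fold change 0.17 and 0.22). In the zinc deficient group 13 of 53 genes differed more than 2-fold between the highest and lowest mouse (26.0% of all genes did), and 0 of 53 without zinc deficient mouse 4 (16.6% of all genes). Among control mice the count was 11 of 53 (21.5% of all genes).

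Short transcripts had the larger fold changes. Over the 53 genes the log2 length of the canonical transcript and the log2 fold change between diets had Pearson's r = -0.56 and Spearman's rho = -0.49. This is a description across genes, which share libraries and are not independent. Over the 10902 tested genes with a length, r was -0.20 and rho -0.23. With the coding length in its place, r was -0.58 and rho -0.62 over the 53 genes. The 13 genes with the shortest transcripts had a median log2 fold change of 0.51 and the 13 with the longest had 0.066. Without control mouse 1, r was -0.45 over the 53 genes and -0.089 over all genes tested. The part of transcript length in the differences between diets was not tested.

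**Figure D5:**
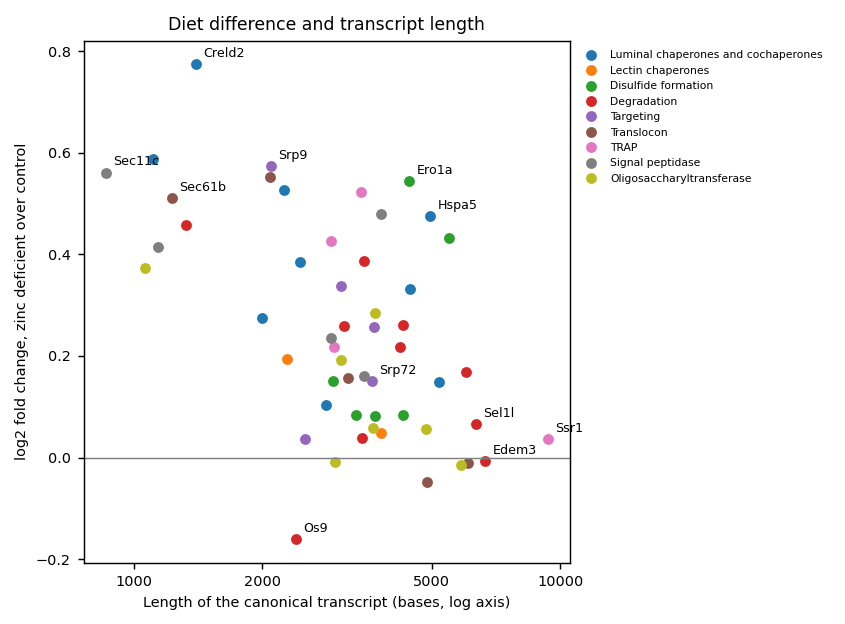
Length of the canonical transcript in bases (log axis) against the log2 fold change between diets for the 53 genes (points, coloured by role). Creld2 (0.77), Sec11c (0.56) and Srp9 (0.57) lie at the upper left and Sel1l (0.066), Edem3 (-0.0072) and Ssr1 (0.036) at the lower right.

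For 7 pairs of genes with like roles the ratio of levels per base of summed exon length was compared within each mouse, which frees it from the scaling between mice. Derl1 was higher than Derl2 by 1.68 ± 0.11 on the log2 scale (SD, n = 8), which is 3.20-fold, in 8 of 8 mice, and Sec11c was higher than Sec11a by 1.60 ± 0.16, which is 3.04-fold, in 8 of 8 mice (both adjusted p = 0.0109, exact two-sided sign-flip permutation test). Stt3b was below Stt3a, with a log2 ratio of -0.88 ± 0.10, and Edem3 was below Edem2, with -1.55 ± 0.23, in 8 of 8 mice (both adjusted p = 0.0109, exact permutation test). Derl3, known from secretory tissues, was below Derl2 with -0.55 ± 0.39 in 7 of 8 mice (adjusted p = 0.0182, exact permutation test). These 5 orders held with the canonical transcript length, with the coding length and without division by length, but the sizes did not. Derl1 was 1.85-fold above Derl2 with the canonical and 1.79-fold with the coding length, Sec11c was 5.58-fold and 5.40-fold above Sec11a, and Derl3 was 2.12-fold and 6.40-fold below Derl2, beside 1.46-fold with the summed exon length. The order of Edem1 and Edem2 was not settled, since the log2 ratio was -0.70 ± 0.17 with the summed exon length (adjusted p = 0.0109, exact permutation test) and 0.076 with the coding length. Ero1b over Ero1a was 0.25 ± 0.45 (adjusted p = 0.148, exact permutation test), and 0.74 with the coding length (adjusted p = 0.0182, exact permutation test). The smallest p that 8 mice allow is 0.00781. None of the 7 ratios was called between diets (adjusted p from 0.72 to 0.886, exact permutation test over 70 assignments, smallest unadjusted p possible 0.0286). After adjustment over 7 pairs, a single ratio could not pass the threshold even without overlap between diets, so the test does not show that the ratios were alike. The widest difference between diets was that of Ero1b over Ero1a, which was 0.48 ± 0.27 (SD, n = 4) in control mice and 0.022 ± 0.51 (SD, n = 4) in zinc deficient mice.

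In the lists of neighbouring pathways no gene was called between diets either, where edgeR called 0.403% of all genes and DESeq2 1.09%. Of 16 sensors and regulators of the unfolded protein response, 0 were called by edgeR or by DESeq2. An unadjusted p under 0.05 was found for 0 of 16, against 10.5% of all genes with edgeR and 6.56% with DESeq2. The summed level of these 16 genes ranged from 1007 to 1059 normalised CPM in control mice and from 1035 to 1143 in zinc deficient mice. Atf6, a membrane-bound sensor that is cut to free a transcription factor, had 45.3 to 63.0 normalised CPM in control mice and 54.9 to 69.1 in zinc deficient mice, with the smallest p of the list (log2 fold change 0.24 ± 0.15, SE; edgeR, adjusted p = 0.604). Eif2s1, the translation factor that Perk phosphorylates, had a log2 fold change of 0.29 ± 0.19 (SE; edgeR, adjusted p = 0.658), and Ddit3, a transcription factor of prolonged stress, had 1.16 to 4.30 normalised CPM over the 8 mice. Xbp1, whose transcript Ire1 splices, had 212 to 261 in control mice and 228 to 238 in zinc deficient mice. Of 60 other genes of ER import, folding and degradation, 59 were tested and Srp54b had no count. None of the 59 was called by edgeR or DESeq2. With edgeR 3 had an unadjusted p under 0.05 of 59 (also 3 with DESeq2), against 10.5% of all genes with edgeR and 6.56% with DESeq2, all with the higher mean in zinc deficient mice, namely Srp19 of the signal recognition particle (log2 fold change 0.50 ± 0.16, SE; edgeR, adjusted p = 0.234) and Emc6 and Emc9 of the ER membrane protein complex. In this list 42 of 59 genes had a fitted log2 fold change above 0, with a median of 0.13.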

How the data were processed

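The table the authors deposited holds raw counts of reads for each Ensembl gene identifier in 8 mice, with no normalization applied. The submitters' processing notes name FastQC 0.12.0, STAR 2.7.0a, DESeq2 and the build mm39. The counting program is not given in the sources used here. Of 55414 identifiers, 54749 were found in GENCODE M39 (GRCm39), and 74 symbols shared by several identifiers went to the identifier with the most counts.

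For the comparison of diets the counts were fitted in edgeR 4.0.16 under R 4.3.3 (TMM scaling, filterByExpr, robust quasi-likelihood test, Benjamini-Hochberg over 10911 genes, threshold 0.05). The standard error is the size of the log2 fold change divided by the square root of its F statistic. DESeq2 1.42.0 was the alternative test. Libraries of 1 diet differed beyond sampling noise (chi-square per degree of freedom 5.43 to 55.1). On simulated counts of this comparison (10751 genes), 94.9% of genes changed 4-fold and 74.2% of those changed 2-fold were recovered. Of 178 calls, 7.30% were false. The fitted log2 fold changes of the ER machinery genes ran from -0.16 to 0.77, all smaller than 2-fold. Recovery of changes of that size is not given, so these rates do not show how many of them would be found.

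TPM used summed exon length. Uniqueness is the share of 50-base windows of a canonical transcript found nowhere in the genome sequence outside the gene. Other annotated transcripts were not searched. Paralog ratios used exact permutation tests in Python 3.11.15. Every one of the 53 genes is named with its level. A fold change with its error is given for genes with an unadjusted p under 0.05 and for 1 gene chosen for each role. The 53 genes, roles, lists, pairs and motifs were chosen with earlier results of these data known. Protein sequences were not analysed here.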

Additional observations from a re-analysis of the deposited data

Results flagged for a closer look

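Of the 106 groups of 4 values (53 genes in both diets), 1 held a mouse that stood apart from the other 3 by Dixon's test at the 95% level, where chance alone flags about 1 in 20 groups. Hyou1, the nucleotide exchange factor of BiP, had 195 normalised CPM in control mouse 3, while the other control mice had 138, 139 and 140. The gap to the nearest of them was 0.965 of the range of the group, above the critical value for 4 values.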

How the results depend on the processing

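No ER machinery gene was called under any alternative except without the expression filter, where 1 was called (Srp9, adjusted p = 0.0492, beside 1.33% of all genes). The number with an unadjusted p under 0.05, 5 in the report, was 8 with DESeq2 (6.56% of all genes), 1 with library size only (Os9; 13.9%), 16 without the expression filter (10.2%), 9 without the robust option (10.6%), 12 with the replicate block (11.5%) and 2 to 12 with 1 mouse left out (7.25% to 11.8%), lowest without control mouse 1, control mouse 2 or zinc deficient mouse 4. Of all genes, 44 in the report, 134 were called with DESeq2, 11 with library size only, 251 without the expression filter, 25 without the robust option and 8 to 36 with 1 mouse left out. With DESeq2's size factors 1 of 53 genes did not overlap, beside 6.12% of all genes. The labels do not say whether the replicate numbers pair the mice, and a shared batch by number is not settled here. Correlations of same-numbered mice were 0.114, 0.0925, 0.00489 and 0.0926. Of the control mice, 3 of 4 were closest to the zinc deficient mouse of their own number and control mouse 3 to mouse 4. The block changed no call of the 53 genes at the adjusted threshold.

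With library size only the log2 fold change was -0.11 for Calr, -0.087 for Herpud1, -0.055 for Srp14, -0.17 for Sec61a1 and -0.25 for Rpn1. With 1 mouse left out it ran from -0.045 to 0.35 for Calr, from -0.013 to 0.39 for Herpud1, from -0.015 to 0.27 for Sec61a1 and from -0.11 to 0.17 for Rpn1, all lowest without zinc deficient mouse 4. The counts of genes highest in zinc deficient mouse 4 and lowest in control mouse 1, 43 and 30, were 27 and 4 with library size only (4.65% and 1.78% of all genes). Without zinc deficient mouse 4 the fold between the highest and lowest zinc deficient mouse was 1.78 for Hspa5, 1.63 for Creld2, 1.75 for Pdia4, 1.79 for Syvn1, 1.36 for Sdf2l1 and 1.80 for Hyou1. The log2 ratio of Ero1b to Ero1a passed the threshold with the canonical length (0.80), the coding length (0.74) and no length (0.75), and ran from 0.18 to 0.39 with 1 mouse left out. That of Edem1 to Edem2 was 0.25 without length and 0.076 with the coding length. The difference between diets of the Derl1 to Derl2 ratio ran from -0.054 to 0.070 and that of Edem3 to Edem2 from -0.17 to 0.054 with 1 mouse left out. The coding length, the comparison of zinc deficient mice 4 and 2, the counts of extreme mice with library size only and the folds without zinc deficient mouse 4 were chosen after seeing the data. The causes of these changes were not tested.

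With 4 mice per diet and this spread, differences of the size seen here had standard errors of 0.13 to 0.47 on the log2 scale, so that a p above the threshold does not show that a gene was alike in both diets. Sec61g and Derl3 had the fewest counts (lowest 28 and 33), so that counting error weighs most there. It also weighs where the spread within diets was small, as for Srp72 (0.063 on the log2 scale).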
